A study of Mus musculus with 18 samples.

Results

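The 9 genes described here, Kcnj10, Aqp4, Gja1, Aldoc, Glul, Aldh1l1, S100b, Sox9 and Fgfr3, are markers of homeostatic astrocytes, that is, genes by which resting astrocytes are recognised. They were taken by name and found by symbol in the authors' deposited table of log2 folds, where all 9 of the listed genes were present among 12205 genes, each with a fold in all 12 columns. The cells were primary astrocytes of mice homozygous for the Eif2b5-R132H allele (Eif2b5-R132H-R132H), a model of vanishing white matter disease, in which the gene for the catalytic epsilon subunit of the translation initiation factor eIF2B carries a point mutation. Freshly thawed cells were cultured over 120 hr, without cytokines or with TNFα (20 ng/ml) and IL-1β (0.25 ng/ml) present in the final 24 hr or 48 hr. Each culture gave an RNA-seq library and a Ribo-seq library, so that 18 libraries fell into 6 groups of 3, and every group held 1 library of each of 3 batches. Ribo-seq reads the stretches of mRNA covered by ribosomes, here fragments of 26 to 34 nt.

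Every group of the series carried the mutant allele. The table also holds columns headed WT for the same treatment, and their libraries are in no group of the series, so genotype and library set cannot be told apart in any mutant and WT values set side by side. The labels give neither the age of the mice nor how many mice a batch came from.

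Homeostatic astrocytes clear potassium, water and glutamate from the space around neurons and pass ions and metabolites to each other through gap junctions. The 9 genes stand for those tasks: channels of the membrane (Kcnj10, Aqp4, Gja1), enzymes of glucose, glutamine and folate metabolism (Aldoc, Glul, Aldh1l1), a calcium-binding protein (S100b), and regulators of glial identity and growth (Sox9, Fgfr3). TNFα and IL-1β are inflammatory cytokines, secreted by microglia among other cells, and are commonly used to bring cultured astrocytes into a reactive state.

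For each gene and comparison the authors' deposited table gives 1 log2 fold, treated against untreated, of mRNA, of ribosome-protected fragments (RPF) and of RD, which is taken here as ribosome density. The mRNA comparison shows transcript level, RPF the amount of ribosome footprints on a gene's transcripts, and RD, so taken, the footprints relative to the mRNA. A log2 fold of -1 means 50% of the untreated value, and a gene was counted as low at -1 or less and as high at 1 or more. There is no value per library, so no gene was tested and no fold carries an error, the depth per library is unknown, and expression levels cannot be compared between genes. All 9 markers had a fold in every column, and their levels, which would show how far the cultures resemble resting astrocytes, were not analysed here. The 24 hr and the 48 hr folds share their untreated libraries and are not independent. The samples are bulk cultures, in which fewer cells of a type and less RNA per cell cannot be told apart.

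Promoter sequences are shown for 4 of the markers that span the range of responses described next: Kcnj10 and Aldoc with the lowest folds, Gja1 between, and Glul with the highest mRNA fold. Each is the 250 bases before the gene's start in RefSeq on GRCm38.p6, on the plus strand of the chromosome, at chr1:172340960-172341209 for Kcnj10, chr11:78322823-78323072 for Aldoc, chr10:56377050-56377299 for Gja1 and chr1:153899679-153899928 for Glul. Capitals mark every match, on either strand, to 1 of 7 short motifs, whose letters are given with their frequency after the sequences.
Kcnj10: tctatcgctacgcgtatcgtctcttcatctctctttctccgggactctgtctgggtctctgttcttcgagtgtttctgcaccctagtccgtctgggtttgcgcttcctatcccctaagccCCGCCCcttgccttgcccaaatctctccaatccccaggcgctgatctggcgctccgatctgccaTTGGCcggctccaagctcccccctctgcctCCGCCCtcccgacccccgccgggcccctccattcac
Aldoc: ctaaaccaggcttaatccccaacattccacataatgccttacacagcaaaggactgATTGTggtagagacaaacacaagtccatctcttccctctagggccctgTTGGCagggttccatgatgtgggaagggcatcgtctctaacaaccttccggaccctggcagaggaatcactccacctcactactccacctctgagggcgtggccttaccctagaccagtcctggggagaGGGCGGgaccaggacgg
Gja1: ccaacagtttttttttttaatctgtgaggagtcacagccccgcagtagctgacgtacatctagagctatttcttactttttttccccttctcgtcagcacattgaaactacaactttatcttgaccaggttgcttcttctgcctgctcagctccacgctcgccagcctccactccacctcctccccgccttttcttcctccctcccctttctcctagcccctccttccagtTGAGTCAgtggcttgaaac
Glul: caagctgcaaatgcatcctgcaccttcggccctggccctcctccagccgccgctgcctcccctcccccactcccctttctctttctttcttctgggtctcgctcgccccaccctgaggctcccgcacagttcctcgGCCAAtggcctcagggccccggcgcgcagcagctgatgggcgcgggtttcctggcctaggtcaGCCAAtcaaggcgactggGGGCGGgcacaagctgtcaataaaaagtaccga

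Promoters from RefSeq were scanned for 7 of the 9 genes, all but Aqp4 and Sox9, and for background over 32851 promoters in all. GC boxes, searched as GGGCGG and present in 32.7% of all promoters, were found in 5 of those 7, with 2 in Kcnj10, 1 each in Aldoc, Glul and Aldh1l1 and 3 in Fgfr3. NFI sites in their short form, searched as TTGGC and present in 41.5%, were found in 4, with 1 each in Kcnj10 and Aldoc, 2 in Glul and 3 in S100b. The AP-1 motif, searched as TGANTCA and present in 6.75%, stood in Gja1 at -19 to -13 from its start. The core letters of SOX sites, ACAAT, present in 27.7%, stood in Aldoc. For NF-kB a single string of 9 letters was searched, GGGANTTCC, which is present in 1.43% of all promoters. Other forms of the NF-kB site, among them longer ones, were not searched. The STAT motif was searched as TTCNNNGAA and is present in 7.02%. The TATA box was searched as TATAAA and is present in 12.4%. None of the 7 windows held any of these last 3, which says only that these letters are not in these 250 bases. No match of 1 motif overlapped that of another in the 4 sequences shown. Starts differ between annotations: that of Aldoc lies 105 bases and that of Gja1 1788 bases from the start of the GENCODE transcript used for its length. A match is a run of letters and no evidence of binding. Kcnj10 and Aldoc, with low folds, and Glul, with a positive mRNA fold, each held a GC box and a short NFI site.

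After 24 hr of TNFα and IL-1β most of the markers had lower mRNA in the mutant astrocytes, by amounts that differed widely between them. Per the authors' deposited table, in mRNA at 24 hr, 3 of the 9 markers were at or below a log2 fold of -1, against 7.27% of all genes, and 4 of 9 at 48 hr, against 8.24%. In footprints, the authors' deposited table had there 5 of 9 at 24 hr, against 7.9% of all genes, and 6 of 9 at 48 hr, against 8.29%. None was at or above 1 in mRNA (7.73% of all genes at 24 hr, 8.96% at 48 hr) or in RPF (7.32% at 24 hr, 7.43% at 48 hr) per the authors' deposited table. Per the authors' deposited table the 9 markers had a median mRNA fold of -0.92 at 24 hr and -0.93 at 48 hr, and the median RPF fold was -1.03 and -1.19, while the medians over all genes lay between 0.01 and 0.04. The markers did not behave as a block: Kcnj10 and Aldoc had the lowest folds in each of these columns, with S100b close to Aldoc in mRNA at 48 hr. Aldh1l1, Sox9 and Fgfr3 lay between -0.82 and -1.48, both ends being folds of Fgfr3, and Gja1, Aqp4 and Glul lay nearest to 0.

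**Figure D1:**
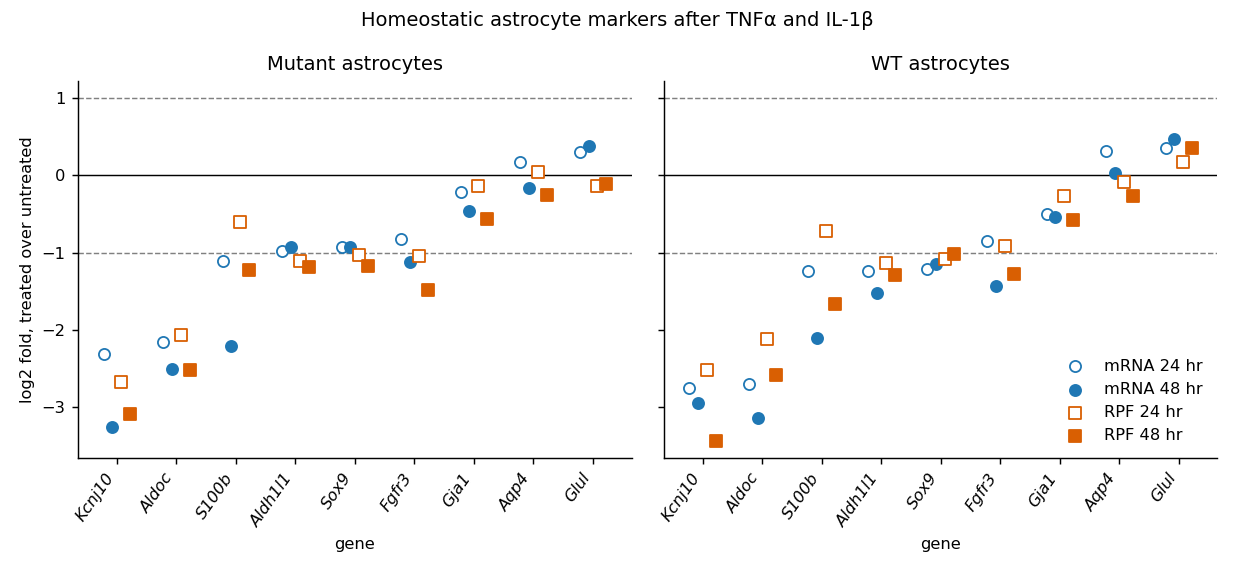
Log2 folds of the 9 markers per the authors' deposited table (vertical axis, treated over untreated) in mutant cells (left) and WT cells (right). Circles are mRNA and squares RPF, open at 24 hr and filled at 48 hr, with dashed lines at 1 and -1; Kcnj10 and Aldoc sit at or below -2 in all 8 columns shown, and Glul sits above 0 in mRNA in both genotypes. There is 1 value per gene and column, with no error.

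Kcnj10 encodes Kir4.1, the inward-rectifying potassium channel through which astrocytes take up potassium (GRCm38 chromosome 1, 172341210 to 172374085, plus strand). Per the authors' deposited table its mutant mRNA fold at 24 hr was -2.31, and that at 48 hr was -3.25, which leaves 20.1% and 10.5% of the untreated level. Footprints of Kcnj10 per the authors' deposited table had folds of -2.67 and -3.09, leaving 15.7% and 11.7%. It had the lowest fold of the 9 in all 4 of these columns, and of 12204 genes 146 lay below it in mRNA at 24 hr and 64 at 48 hr. The 48 hr mRNA fold was lower than the 24 hr fold by 0.94 on the log2 scale, while the RPF fold was lower by 0.42, as computed from the authors' deposited table.

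Aqp4, the water channel of astrocyte endfeet, stood near the other end. Per the authors' deposited table its mRNA fold at 24 hr was 0.17 and at 48 hr -0.16, and its RPF folds were 0.05 and -0.25. These are 113% and 89.3% of the untreated mRNA level and 103% and 84.1% of untreated footprints, so that the water channel and the potassium channel, which share the endfoot membrane, had unlike folds. At 24 hr 64.2% of all genes had a lower mRNA fold than Aqp4, and 34.1% did at 48 hr.

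Gja1 encodes connexin 43, the main gap junction protein of astrocytes (chromosome 10, 56377330 to 56402513, plus strand). The authors' deposited table gives it mRNA folds of -0.21 and -0.46 at 24 hr and 48 hr and RPF folds of -0.14 and -0.57. Its footprints at 48 hr were thus at 67.4% of the untreated level. The sign was negative in all 4 columns and none was at or below -1.

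Among the enzymes, the glycolytic one stood far below the other 2. Aldoc, the aldolase isoform of brain (chromosome 11, 78322968 to 78327781, plus strand), had mRNA folds of -2.16 and -2.50 and RPF folds of -2.06 and -2.52 per the authors' deposited table, next to Kcnj10 as the second lowest in each column. Aldoc mRNA was at 22.4% of untreated at 24 hr and 17.7% at 48 hr, and its footprints at 23.9% and 17.4%. Its mRNA and RPF folds differed by at most 0.10 on the log2 scale at either time.

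Glul encodes glutamine synthetase, which turns glutamate taken up from synapses into glutamine (chromosome 1, 153899944 to 153909723, plus strand). It was the only marker with a positive mRNA fold at both times in the mutant, 0.30 at 24 hr and 0.38 at 48 hr per the authors' deposited table, and its RPF folds there were -0.13 and -0.11. That is 123% and 130% of untreated mRNA beside 91.1% and 92.7% of untreated footprints. Its mRNA folds lay above those of 75.3% of all genes at 24 hr and 74.6% at 48 hr, and its RPF folds above those of 36.5% and 38.5%.

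Aldh1l1 encodes the folate enzyme 10-formyltetrahydrofolate dehydrogenase, a widely used pan-astrocyte marker (chromosome 6, 90486427 to 90600203, plus strand). Per the authors' deposited table its mRNA folds were -0.98 and -0.93 and its RPF folds -1.11 and -1.19. Its footprints were at 46.4% and 43.8% of untreated, and its mRNA at 50.6% and 52.4%.

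S100b, which encodes a small calcium-binding protein that astrocytes also secrete (chromosome 10, 76253853 to 76261159, plus strand), had the widest gap between the 2 times. The authors' deposited table gives mRNA folds of -1.11 at 24 hr and -2.21 at 48 hr, so that mRNA stood at 46.2% and then 21.6% of untreated. Its RPF folds per the authors' deposited table were -0.60 and -1.23, nearer to 0 than its mRNA folds at both times.

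Sox9, a transcription factor of glial fate (chromosome 11, 112782224 to 112787760, plus strand), had mRNA folds of -0.92 and -0.92 and RPF folds of -1.03 and -1.17 per the authors' deposited table. Fgfr3, a receptor for fibroblast growth factors that is expressed in astrocyte precursors and astrocytes (chromosome 5, 33721674 to 33737068, plus strand), had mRNA folds of -0.82 and -1.12 and RPF folds of -1.04 and -1.48. Both had lower RPF than mRNA folds at both times. Over the 8 mRNA and RPF folds of both genotypes, the 3 pairs with the smallest root-mean-square distance in log2 units were Aldh1l1 and Sox9 at 0.170, Aldh1l1 and Fgfr3 at 0.211, and Sox9 and Fgfr3 at 0.240, computed from the authors' deposited table. Kcnj10 and Aldoc were 0.524 apart and Aqp4 and Glul 0.356 apart, and Kcnj10 and Glul, at 3.13, were the farthest pair.

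**Figure D2:**
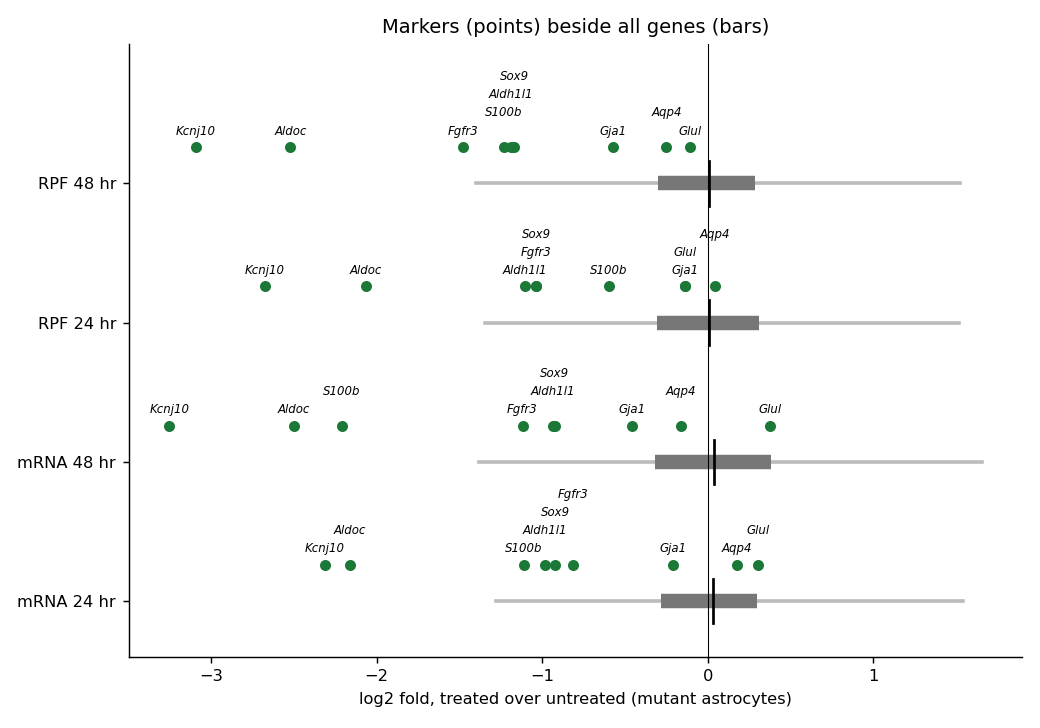
Mutant log2 folds of the 9 markers (green points) above the spread of all genes in the same column of the authors' deposited table: thin bar from the 5th to the 95th percentile, thick bar between the quartiles, black tick at the median. In RPF at 48 hr all 9 points lie below 0, and Kcnj10 and Aldoc lie far left of the thin bar, whose end is at -1.40. Fgfr3, at -1.48, lies just past that end.

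Most of the mutant folds of the markers were lower at 48 hr than at 24 hr. Computed from the authors' deposited table, the 48 hr mRNA fold was below the 24 hr fold for 7 of the 9 markers, against 49.5% of all genes, with a median difference of -0.30, from -1.10 for S100b to 0.07 for Glul. For RPF the difference was below 0 for 8 of 9, against 51.7% of all genes, with a median of -0.42, from -0.63 for S100b to 0.02 for Glul. The median size of this difference over all genes was 0.15 in both quantities. The mutant mRNA folds of Aldh1l1 and of Sox9 at the 2 times lay within 0.05 of each other. The WT columns had the same direction. There the 48 hr fold was below the 24 hr fold for 7 of 9 markers in mRNA, against 51.0% of all genes. In WT RPF it was below for 7 of 9, against 49.4%, and the median differences were -0.28 and -0.31.

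In the mutant, RD folds of the markers spanned a narrower range than their mRNA or RPF folds, as they did over all genes. At 24 hr the 5th and 95th percentiles over all genes were -0.47 and 0.49 in RD and -1.28 and 1.54 in mRNA. No marker was at or beyond an RD fold of 1 in either direction, against 1.7% of all genes at 24 hr and 2% at 48 hr, and the RD fold was below 0 for 7 of 9 at 24 hr (48.5% of all genes) and 5 of 9 at 48 hr (45.4%) per the authors' deposited table. Glul had RD folds of -0.42 at 24 hr and -0.42 at 48 hr per the authors' deposited table, with only 6.58% and 10.8% of all genes lower. Both were larger in size than its mRNA and RPF folds at the same time. Kcnj10 had the lowest RD fold of the markers at 24 hr, -0.46, and the highest at 48 hr, 0.16, per the authors' deposited table. For Fgfr3 the authors' deposited table gives -0.21 and -0.30, and the other 6 markers lay between -0.19 and 0.14 at both times.

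The sources used here do not give the formula behind RD, and for most genes it lies close to the RPF fold minus the mRNA fold: the median size of the gap between the 2 was 0.041 at 24 hr and 0.080 at 48 hr over 12204 genes in the mutant. S100b departed from this. Its RPF fold minus its mRNA fold was 0.52 at 24 hr and 0.98 at 48 hr in the mutant, while its RD folds per the authors' deposited table were -0.07 and 0.10. Those gaps of 0.59 and 0.88 ranked 90 and 41 by size among 12204 genes. In the WT columns of the authors' deposited table the S100b gaps were 0.40 and 0.81, the same sign, ranking 270 and 70 among 12205. The gap of the other 8 markers was at most 0.13 in size in the mutant columns. S100b has the shortest coding region of the 9 markers, 92 codons in GENCODE M21, and 1.23% of the genes with a protein-coding transcript have a shorter one. Its locus overlaps Dip2a on the opposite strand, whose mutant mRNA folds per the authors' deposited table were -0.51 and -0.42 and RPF folds -0.61 and -0.45 (Dip2a was named after its position was seen). The sources used here do not say whether the counting used strand, and the part of short length or of the overlap in the S100b values was not tested. Aldh1l1, Glul, Fgfr3 and Aqp4 also overlap other annotated genes, none of which is among the 12205.

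**Figure D3:**
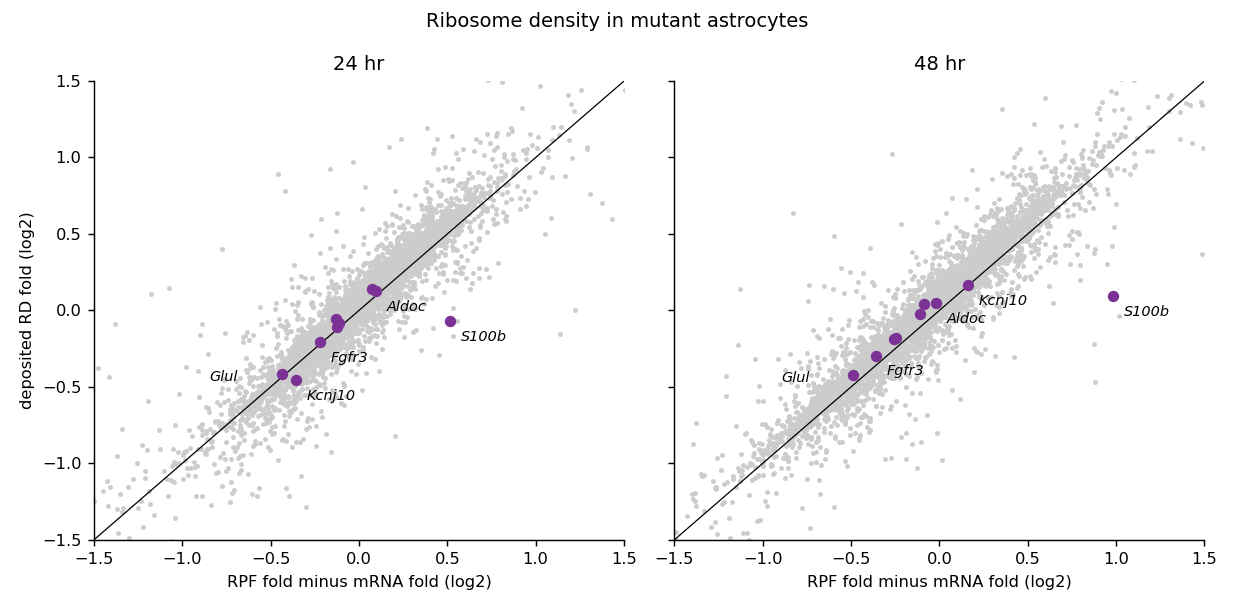
Deposited RD fold (vertical axis, log2) against the RPF fold minus the mRNA fold (horizontal axis, log2) in mutant cells at 24 hr and 48 hr, with the markers in purple, all other genes in grey and the line of equality; genes beyond the axes are not drawn. S100b lies to the right of the line at both times, at 0.52 and 0.98, and the other 8 markers lie on or near it.

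The WT columns allow each marker's fold to be set beside the mutant one, as the authors' values. Per the authors' deposited table, WT mRNA at 24 hr had 5 of 9 markers at or below -1 (9.55% of all genes) and 6 of 9 at 48 hr (10.3%), and in WT RPF 4 of 9 at 24 hr (8.7%) and 6 of 9 at 48 hr (8.71%). No marker was at or beyond 1 in the WT RD columns of the authors' deposited table, where 3.11% and 4.56% of all genes were. The WT RD fold per the authors' deposited table was below 0 for 3 of 9 markers at 24 hr, with a median of 0.06, and for 5 of 9 at 48 hr, with a median of -0.07. WT mRNA folds of Kcnj10 per the authors' deposited table were -2.75 and -2.95, of Aldoc -2.69 and -3.14, and of S100b -1.23 and -2.10. In mRNA the same 3 genes were thus lowest at 48 hr in both genotypes. In RPF at 48 hr the third lowest was Fgfr3 in the mutant, at -1.48, and S100b in WT, at -1.67, per the authors' deposited table. The authors' deposited table gives WT mRNA folds of -1.23 and -1.52 for Aldh1l1, -1.21 and -1.14 for Sox9, and -0.85 and -1.43 for Fgfr3. Gja1 had WT mRNA folds of -0.50 and -0.54, Aqp4 of 0.32 and 0.03, and Glul of 0.35 and 0.48 per the authors' deposited table.

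The mutant mRNA fold was above the WT fold for 7 of 9 markers at 24 hr, against 50.6% of all genes, and for 5 of 9 at 48 hr, against 47.2%, computed from the authors' deposited table. The median difference was 0.25 at 24 hr and 0.08 at 48 hr, and the widest at 48 hr were those of Aldoc (0.54 at 24 hr and 0.64 at 48 hr) and Aldh1l1 (0.25 and 0.58). For a gene with a low WT fold a higher mutant fold was common: among genes at or below -1 in WT mRNA, 73.8% had a higher mutant fold at 24 hr and 69.4% at 48 hr, and of the markers in that class 5 of 5 and 4 of 6 did. In RPF the mutant fold was above the WT fold for 6 of 9 markers at 24 hr (49.2% of all genes) and 6 of 9 at 48 hr (50.1%), with medians of 0.05 and 0.01.

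Of the markers, Glul, S100b and Kcnj10 had the widest mutant minus WT differences in RPF at 48 hr. For Glul the mRNA folds of the genotypes lay within 0.10 of each other, while the mutant RPF fold lay below the WT fold by 0.31 at 24 hr and 0.46 at 48 hr, the WT RPF folds per the authors' deposited table being 0.18 and 0.35. At 24 hr 10.9% of all genes had a lower mutant minus WT difference in RPF than Glul, and 7.16% at 48 hr. The WT RD folds of Glul were also negative, -0.24 and -0.20 per the authors' deposited table. Its mutant minus WT difference in RD was -0.17 and -0.22, with 30.0% and 31.3% of all genes lower. Kcnj10 had a mutant minus WT mRNA difference of 0.44 at 24 hr and -0.30 at 48 hr and an RPF difference of -0.16 and 0.34, so the sign was opposite between mRNA and RPF and between the times. Its WT RD folds per the authors' deposited table were 0.13 and -0.57, against -0.46 and 0.16 in the mutant. No error can be put on these differences.

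**Figure D4:**
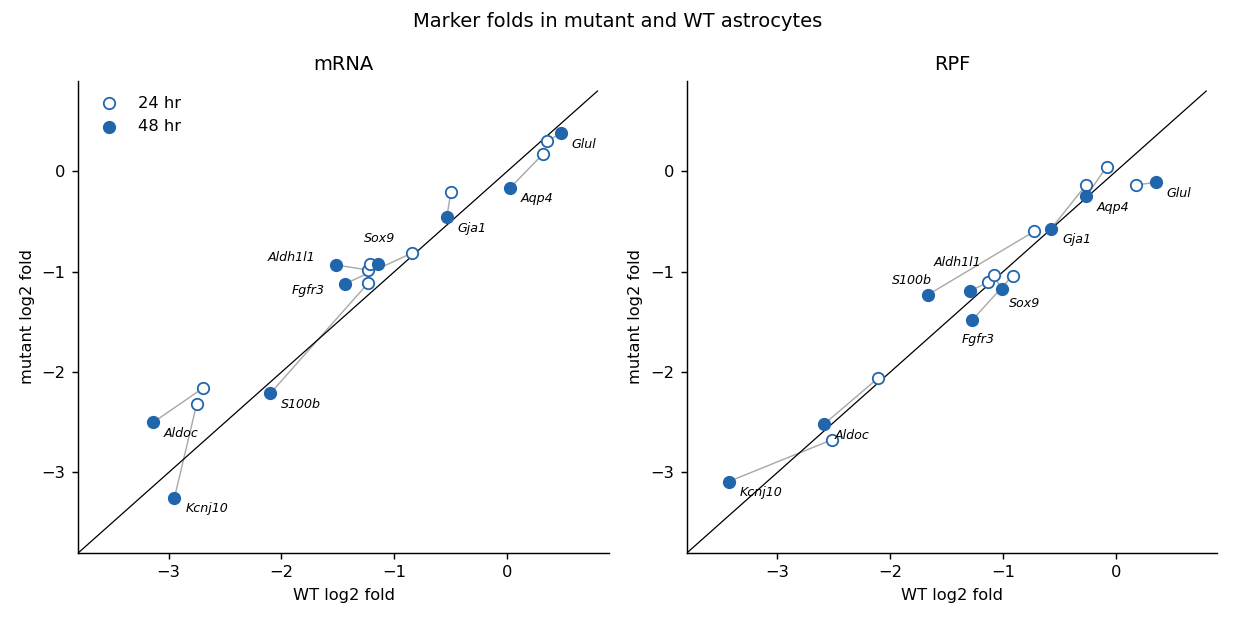
Mutant log2 fold (vertical axis) against WT log2 fold (horizontal axis) of the 9 markers per the authors' deposited table, for mRNA (left) and RPF (right), open circles at 24 hr joined to filled circles at 48 hr, with the line of equality. Aldoc lies above the line in mRNA at both times, at mutant folds of -2.16 and -2.50 beside WT folds of -2.69 and -3.14, and Glul lies below it in RPF.

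The related lists that follow are described by mutant mRNA and read against all genes, of which 7.27% were low and 7.73% high at 24 hr and 8.24% and 8.96% at 48 hr. Of 20 measured genes (21 listed) for water, potassium and membrane junctions, the markers left out, 3 were at or below -1 and none at or above 1 in mutant mRNA at 24 hr, and 4 and none at 48 hr, with medians of -0.54 and -0.52 per the authors' deposited table. The authors' deposited table gives mRNA folds of -2.86 and -3.05 for Kcnk2 and of -2.62 and -3.10 for Kcnk1, both potassium leak channels. Atp1b2, a subunit of the sodium-potassium pump, had -1.89 and -2.15, and Slc12a2, a sodium-potassium-chloride cotransporter, -0.87 and -1.11 per the authors' deposited table. Of 7 measured genes for gap junctions, pannexins and their partners (12 listed), 2 were low and 1 high at 24 hr and 3 and 2 at 48 hr per the authors' deposited table, among them Gja5, another connexin, at 2.02 and 1.65, Gjc1, a further connexin, at -1.07 and -1.20, and Panx1, a pannexin channel, at 0.98 and 1.02. In other columns of the authors' deposited table that list had more high than low genes, with 2 high and none low in mutant RPF at 24 hr and 2 high and 1 low in WT mRNA at both times.

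Of 16 measured genes that handle glutamate, glutamine and GABA (20 listed), 3 were at or below -1 and 1 at or above 1 at 24 hr, and 4 and 1 at 48 hr, with medians of -0.27 and -0.33 in mutant mRNA per the authors' deposited table, and the share of high genes was near that of all genes. Slc38a3, a transporter that moves glutamine out of astrocytes, had -3.19 and -3.50 per the authors' deposited table, while Slc1a2, the glutamate transporter GLT-1, had 1.99 and 1.90. Grm3, a glutamate receptor, was at -2.18 and -1.88 per the authors' deposited table. Glutamine synthetase, the enzyme between uptake and release, lay between the 2 transporters.

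The low fold of Aldoc was not shared by most of the glycolytic genes. Of 26 genes for glycolysis, glycogen and lactate, all measured, 2 were at or below -1 and 3 at or above 1 in mutant mRNA at both times, with medians of 0.24 and 0.29 per the authors' deposited table, shares near those of all genes. Low were Pfkp, a phosphofructokinase, at -1.93 at 24 hr, and Ppp1r3c, a glycogen-targeting phosphatase subunit, at -1.46 at 48 hr per the authors' deposited table. Slc16a3, a lactate exporter, at 2.01 and 1.20, Pfkfb3, an activator of glycolysis, at 1.51 and 1.16, and Pfkl, another phosphofructokinase, at 1.42 and 1.45 were high per the authors' deposited table. Of 19 measured folate and aldehyde dehydrogenase genes (20 listed), 1 was low and 1 high at both times, the high one being Aldh1l2, the mitochondrial counterpart of Aldh1l1, at 1.48 and 1.39 per the authors' deposited table. Of 8 measured genes of the S100 list (12 listed), S100a8, a secreted inflammatory protein, was at 4.74 and 5.01 per the authors' deposited table and no other gene was at or beyond 1.

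Of 33 measured glial transcription factors (35 listed), 6 were low and 2 high in mutant mRNA at 24 hr and 4 and 3 at 48 hr per the authors' deposited table, with medians of -0.11 and -0.19, the share of high genes being near that of all genes. Id4, an inhibitor of basic helix-loop-helix factors, was at -1.83 and -2.09, Rfx4 at -1.69 and -1.89, Sox11 at -1.34 and -1.92, and Dbx2, a homeobox factor, at 3.18 and 3.18 per the authors' deposited table. Of 25 measured genes around FGF receptors (28 listed), 6 were low and 3 high at 24 hr and 5 and 4 at 48 hr per the authors' deposited table. Fgfbp1, an FGF carrier, was at -6.31 and -5.47, Fgf18 at -2.70 and -3.33, Fgf7 at 2.85 and 3.18, and Spry1, a feedback inhibitor, at -1.34 and -1.58 per the authors' deposited table. Of 16 measured Notch pathway genes (23 listed), 3 were low at 24 hr and 1 at 48 hr and none was high, with Hey2, a Notch target, at -2.01 and -2.29 per the authors' deposited table.

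**Figure D5:**
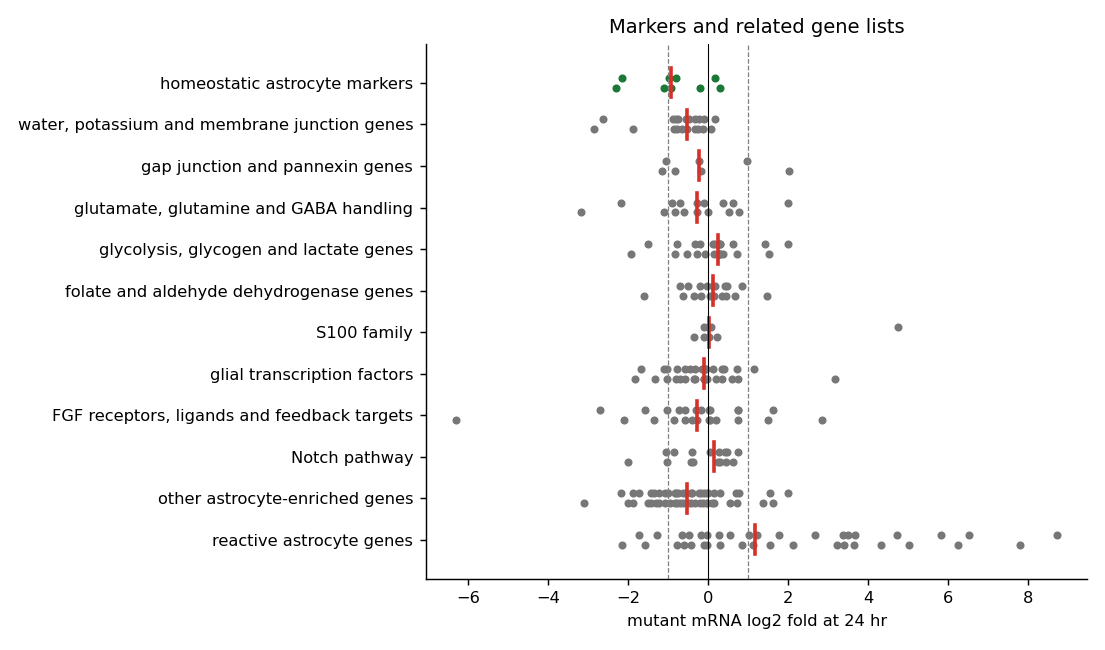
Mutant mRNA log2 fold at 24 hr per the authors' deposited table (horizontal axis) for the 9 markers (green) and for the measured members of each related list with the markers left out (grey), 1 point per gene, staggered for legibility. Red ticks are the list medians and dashed lines mark 1 and -1; the markers have the lowest median of the lists drawn, -0.92, and the reactive astrocyte genes the highest, 1.17.

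Of 52 measured astrocyte-enriched genes outside the 9 (60 listed), 16 were at or below -1 and 4 at or above 1 in mutant mRNA at 24 hr, and 19 and 4 at 48 hr, with medians of -0.53 and -0.47 per the authors' deposited table, so that the share of high genes was near that of all genes and the share of low genes above it. Slco1c1, a thyroid hormone transporter, was at -3.09 and -3.02, Fabp5, a fatty acid binding protein, at -1.92 at 48 hr, and Timp3, a metalloprotease inhibitor, at -2.34 at 48 hr per the authors' deposited table. Slc1a2, also on this list, had its highest folds, 1.99 and 1.90. Among genes known from reactive astrocytes high folds were more common: of 38 measured (39 listed), 21 were at or above 1 at both times, 4 at or below -1 at 24 hr and 7 at 48 hr, with a median of 1.17 at 24 hr per the authors' deposited table. The highest were the chemokine gene Cxcl10 at 8.74 and 6.95 and the lipocalin gene Lcn2 at 7.79 and 8.15 per the authors' deposited table, while Gfap, the astrocyte filament gene on the same list, was at -1.58 and -1.60. Slc1a3, the astrocyte glutamate transporter GLAST, was at 0.77 and 0.67 per the authors' deposited table, so astrocyte markers outside the 9 also lay on both sides of 0.

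Markers of other cells were present in the table and had folds of their own, and without expression levels their share of the cultures is not known. In mutant mRNA at 24 hr the authors' deposited table had 3 of 15 microglia and macrophage markers, with 2 at or above 1 (Cd68 at 1.89 and Tmem119 at 1.16). Of 9 fibroblast and mural markers measured of 12, 3 were high and 2 low, with Dcn at 4.60, Lum at 3.47 and Acta2 at -2.81 per the authors' deposited table. Of 6 ependymal and choroid plexus markers measured of 10, 3 were low and 1 high, from Folr1 at -2.41 up to 1.52 per the authors' deposited table. Of 6 endothelial markers measured of 10, 2 were low and 1 high, with Kdr at -3.29, Slco1a4 at -2.19 and Flt1 at 1.86. Neuronal markers (6 measured of 12) had 2 low and 1 high, Map2 at -2.59, Stmn2 at -1.23 and Gad2 at 1.04 per the authors' deposited table. Oligodendrocyte lineage markers (7 of 13) had 2 low and 1 high, Olig1 at -1.17, Cnp at -1.09 and Pdgfra at 1.73 per the authors' deposited table. The part of these cells in the marker folds was not tested. Eif2b5, whose point mutation does not remove the gene, had mRNA folds of 0.29 and 0.24 per the authors' deposited table.

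The genes closest to Kcnj10 over all 12 folds, by root-mean-square distance in log2 units among 11758 genes, were Cdkn1c at 0.254, Ogn at 0.273, Lrtm2 at 0.303, Enpp1 at 0.310 and Bcar3 at 0.316, computed from the authors' deposited table. Over the 6 mutant folds alone the closest was Kcnk1 at 0.188, followed by Lrtm2, Cdkn1c, Ogn and Erbb4. For Aqp4 the 5 closest over 12 folds were Rbsn at 0.0742, Lrrc8c, Dnajc24, Ppwd1 and Lman1, and over the mutant folds Lbr at 0.0348, Yipf6, Cnot6, Hibch and Ppwd1. A gene with folds near 0 has many close neighbours, and the distances of Aqp4 and Kcnj10 are therefore on unlike scales.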

How the data were processed

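RNA-seq and Ribo-seq libraries came from mutant primary astrocytes, 3 per group. TopHat2, featureCounts and the build mm10 are named, without versions, in the submitters' processing notes. Per the file headers, the authors deposited log2 folds of treated over untreated cells, 1 per gene and comparison, for 12205 genes in 12 columns. The pooling of replicates and the program behind the folds are not given in the sources used here. The authors also deposited, for 2332 transcripts, a density signal of elongation reads and an IS score that the file does not spell out, and its 2 WT columns were not used.

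The markers were matched by symbol, 31 damaged symbols were restored by gene ID, and 1 gene lacked some mutant folds. The markers and gene lists were chosen with earlier results of these data known. Named were all 9 markers, up to 4 genes per related list at each time and up to 3 per list of other cells with the largest mutant mRNA folds, the 5 genes nearest to Aqp4 and to Kcnj10, and Eif2b5; a few genes that this rule names are not reported here. Lists are described by counts and medians, and nothing was tested. Alternatives were thresholds of 1.5-fold and 4-fold, centring, means, leaving out each marker, and the RPF minus mRNA fold in place of RD. Gene positions came from GENCODE M21 and promoters from RefSeq. The rules for counting past a threshold, centring and the distance measure were checked on simulated data (6 of 6 checks passed). No other step was checked that way. Python 3.11.15, pandas 2.3.3, numpy 2.4.6 and matplotlib 3.10.9 were used.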

Additional observations from a re-analysis of the deposited data

How the results depend on the processing

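The folds have no replicate values, so no library could be left out and no error or depth can be given. No paired analysis was possible because the deposited columns carry no replicate numbers. The share of all genes past 1.5-fold or 4-fold was not computed, so marker counts at those thresholds have no background beside them. With a threshold of 1.5-fold, 6 of the 9 markers were low in mutant mRNA at 24 hr, against 3 at 2-fold. With a threshold of 4-fold, 2 were low in mutant RPF at 24 hr and 2 at 48 hr, 2 in WT mRNA at 24 hr and 3 at 48 hr, and 2 in WT RPF at 24 hr and 2 at 48 hr. The WT median RD fold of the markers at 48 hr was -0.07, and 0.13 when RPF minus mRNA took its place, and 6 of 36 single RD folds of markers moved under that choice. Centring each column on its median, at most 0.049 from 0, changed 1 of 12 marker counts (low in mutant mRNA at 24 hr, from 3 to 4) and 4 of 72 list counts, 1 of them by more than 1.5 times, and no marker fold or median changed sign. The mean had the sign of the median in all 12 columns. Leaving out each marker kept the sign of the median except in 2 columns with medians near 0: mutant RD at 48 hr went from -0.02 to 0.0099 without Glul, Aldh1l1, Sox9 or Fgfr3, and WT RD at 48 hr from -0.07 to 0.0029 without Aqp4, Kcnj10, Glul or S100b. List counts moved past 1.5 times in 33 of 72 cases at 1.5-fold and 44 of 72 at 4-fold. Leaving out predicted gene models moved no background share by more than 0.140 percentage points.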

Other observations

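The authors also deposited scores named IS, an abbreviation left unexplained in the file, for transcripts kept after their filtering, with values of untreated (0 hr) and 24 hr treated mutant cells and an elongation read density. It holds 5 of the 9 markers among 2332 transcripts, and the other 4 are not in it. Sox9 had one of the higher values, with IS per the authors' deposited table of 25.3 at 0 hr and 28.9 at 24 hr, above 87.9% and 89.8% of transcripts. Aldoc followed with 20.6 and 16.7 and Fgfr3 with 7.46 and 4.32 per the authors' deposited table. The medians over all transcripts were 2.42 and 1.73. Glul and Aldh1l1 were low, at 0.709 and 0.659 and at 0.157 and 0.267 per the authors' deposited table.

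The ratio of the 24 hr to the 0 hr value was 0.579 for Fgfr3, 0.810 for Aldoc, 0.930 for Glul, 1.14 for Sox9 and 1.71 for Aldh1l1, computed from the authors' deposited table. Its median was 0.825 over the 1946 transcripts with both values above 0, and 90.8% of them had a lower ratio than Aldh1l1. All 5 ratios lay between the 5th and the 95th percentile of the ratio, 0.237 and 2.18. The elongation read density of Aldh1l1 per the authors' deposited table was 2.07, above that of 97.5% of transcripts, and those of Glul, Aldoc, Sox9 and Fgfr3 were 0.576, 0.474, 0.470 and 0.273, against a median of 0.216. Per transcript there is 1 value, with no error.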
